A study of Mus musculus with 4 samples.

Results

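The enzymes described here are those of 6 families that oxidize, reduce or hydrolyse aldehydes, alcohols, ketones and esters or oxygenate nitrogen and sulphur atoms: the aldehyde dehydrogenases (Aldh), alcohol dehydrogenases (Adh), aldo-keto reductases (Akr), flavin-containing monooxygenases (Fmo), carboxylesterases (Ces) and carbonyl reductases (Cbr). Members were taken by gene symbol, through the accession that the array design gives each probe, and not by any measured value. They comprised 72 of the 45604 genes tested, with 97 of the 56605 probes. There were 21 Aldh, 18 Ces, 16 Akr, 7 Fmo, 6 Adh and 4 Cbr genes. The gene table holds 76 such symbols, and *Akr1c20*, *Adh6b*, *Ces1h* and *Ces2d-ps* had no matched probe. A probe counted as well above background where the scanner software said so. By that measure 53 members were well above background on all 4 arrays and 13 on none.

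Total RNA of septal nasal mucosa was compared between young adult mice of 8 weeks and aged mice of 16 months, all male according to the series and all of the C57BL/6J strain, with no transgene or treatment named in the titles. Each age had 2 one-color arrays, and each array was hybridized with Cy3-labelled RNA pooled from 5 mice. The study's methods count fewer mice per age in its gene analyses than separate pools of this size require. The pools of one age may therefore share mice, and the spread between arrays, and each SD over pools, may be partly technical. A description field of the samples names silica aspiration and lung, against the titles and the tissue field, and was not used. The mucosa holds epithelium, glands, vessels, nerves and connective tissue, and in such bulk RNA fewer cells of a type and less RNA per cell cannot be told apart.

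The nasal mucosa is among the tissues richest in enzymes that act on inhaled chemicals. In the olfactory part these enzymes lie mainly in the sustentacular cells, which surround the olfactory receptor neurons (ORNs), and in the Bowman glands below them. Many odorants are themselves aldehydes, alcohols, ketones or esters. An ester can be split by a carboxylesterase into an acid and an alcohol, the alcohol can be oxidized to an aldehyde by an alcohol dehydrogenase, and the aldehyde can be oxidized to an acid by an aldehyde dehydrogenase or returned to an alcohol by an aldo-keto or carbonyl reductase. Flavin-containing monooxygenases oxygenate amines and sulphides. Several of the same enzymes handle retinoids: alcohol dehydrogenases oxidize retinol, and the Aldh1a enzymes make retinoic acid.

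The alcohol dehydrogenase genes lie side by side on chromosome 3 and differed in direction with age, so the promoters of 3 of them are shown, one with a lower level and 2 with higher levels in aged mice. Each sequence runs 5′ to 3′ from 250 bases before to 50 bases after the RefSeq start on the GRCm38.p6 assembly, all on the plus strand. They lie at chr3:138217523-138217822 (*Adh7*), chr3:138277335-138277634 (*Adh1*) and chr3:138313036-138313335 (*Adh6a*). Capitals mark the matches to 5 short motifs searched on both strands.
Adh7: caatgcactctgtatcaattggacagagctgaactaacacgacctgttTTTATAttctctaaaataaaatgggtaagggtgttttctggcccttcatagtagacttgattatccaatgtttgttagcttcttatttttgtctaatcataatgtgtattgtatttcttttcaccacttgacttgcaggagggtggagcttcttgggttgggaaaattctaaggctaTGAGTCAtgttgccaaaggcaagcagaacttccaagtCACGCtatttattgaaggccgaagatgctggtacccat
Adh1: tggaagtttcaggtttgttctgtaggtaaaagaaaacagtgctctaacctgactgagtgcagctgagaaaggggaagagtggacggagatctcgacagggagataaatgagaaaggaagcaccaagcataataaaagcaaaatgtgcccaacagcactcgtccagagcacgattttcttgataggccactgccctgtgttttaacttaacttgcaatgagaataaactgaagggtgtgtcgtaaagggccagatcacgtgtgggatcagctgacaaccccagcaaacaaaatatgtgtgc
Adh6a: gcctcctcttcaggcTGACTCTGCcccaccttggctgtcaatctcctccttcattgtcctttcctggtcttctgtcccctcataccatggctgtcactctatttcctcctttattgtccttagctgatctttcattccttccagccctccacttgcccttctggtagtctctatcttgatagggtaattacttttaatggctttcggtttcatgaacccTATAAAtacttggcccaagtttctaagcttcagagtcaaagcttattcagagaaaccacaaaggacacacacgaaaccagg
The motifs were the TATA box (TATAAA), the core of the xenobiotic response element (GCGTG), the core of the antioxidant response element (TGACNNNGC), the AP-1 site (TGANTCA) and the core motif of nuclear receptors (AGGTCA). The *Adh6a* window held TATAAA with its first base 31 bases before the start, and TGACNNNGC at bases 16 to 24. The *Adh7* window held TGANTCA at bases 226 to 232, and on the minus strand TATAAA at bases 49 to 54 and GCGTG at bases 263 to 267. None of the 5 was found in the *Adh1* window. TATAAA occurred in 13.6% of the 32851 promoters of the table and in 15.9% of the 63 promoters of 58 members. The other shares, over all promoters and over member promoters, were 32.4 and 22.2% for GCGTG, 12.4 and 7.94% for TGACNNNGC, 7.81 and 3.17% for TGANTCA, and 16.3 and 23.8% for AGGTCA. A match is a stretch of letters and says nothing of binding.

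Before the ages were compared, the arrays were checked. Of the non-control spots, 63.1 to 76.8% were well above background, no spot was saturated, and 69 to 79 of the 97 member probes were well above background on each array. Values correlated across genes at r = 0.988 within either age and at 0.983 to 0.990 between arrays of different age. The female-expressed *Xist* gave 612 to 645 on all 4 arrays, and of 11 probes for 8 Y-linked genes only 1 probe on 1 array was well above background, which goes against the male label in both ages alike. All 11 sustentacular markers, all 8 Bowman gland markers and all 12 mature ORN markers were well above background on every array, so the defining markers of olfactory mucosa were present. One slide held young adult array 1 and aged array 1, and the remaining 2 were on separate slides.

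Most of the 72 enzyme genes did not meet the limits for a call between the ages that are given below. A gene not called may still have changed. In the following a level is a normalized intensity, and a fold change is the log2 difference of aged minus young adult mice. Such a value does not compare one gene with another, because each probe has its own response. Over the 72 genes the median fold change was 0.03, against 0.01 over all genes tested, and 43 genes were higher and 29 lower in aged mice (59.7% higher, against 51.5% of all genes). Each gene was tested for a difference by limma's moderated fit over all genes, and was called at P below 0.05 with a Benjamini-Hochberg FDR below 0.25. By this rule *Ces1f*, *Adh6a* and *Adh1* were upregulated and *Aldh3b2* was downregulated. The 3 upregulated genes are 4.17% of the members, against 1.65% of all genes tested, and the 1 downregulated gene is 1.39%, against 2.33% (3.98% of all genes in either direction). All 4 were among the 53 members well above background on every array, and 2.11 and 3.07% of all genes detected to that extent were called higher and lower. With both criteria and also a mean level of at least 100 and a fold change of at least 1.5 on the linear scale, *Ces1f* and *Aldh3b2* were left (0.814% of all genes higher and 1.15% lower).

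**Figure D1:**
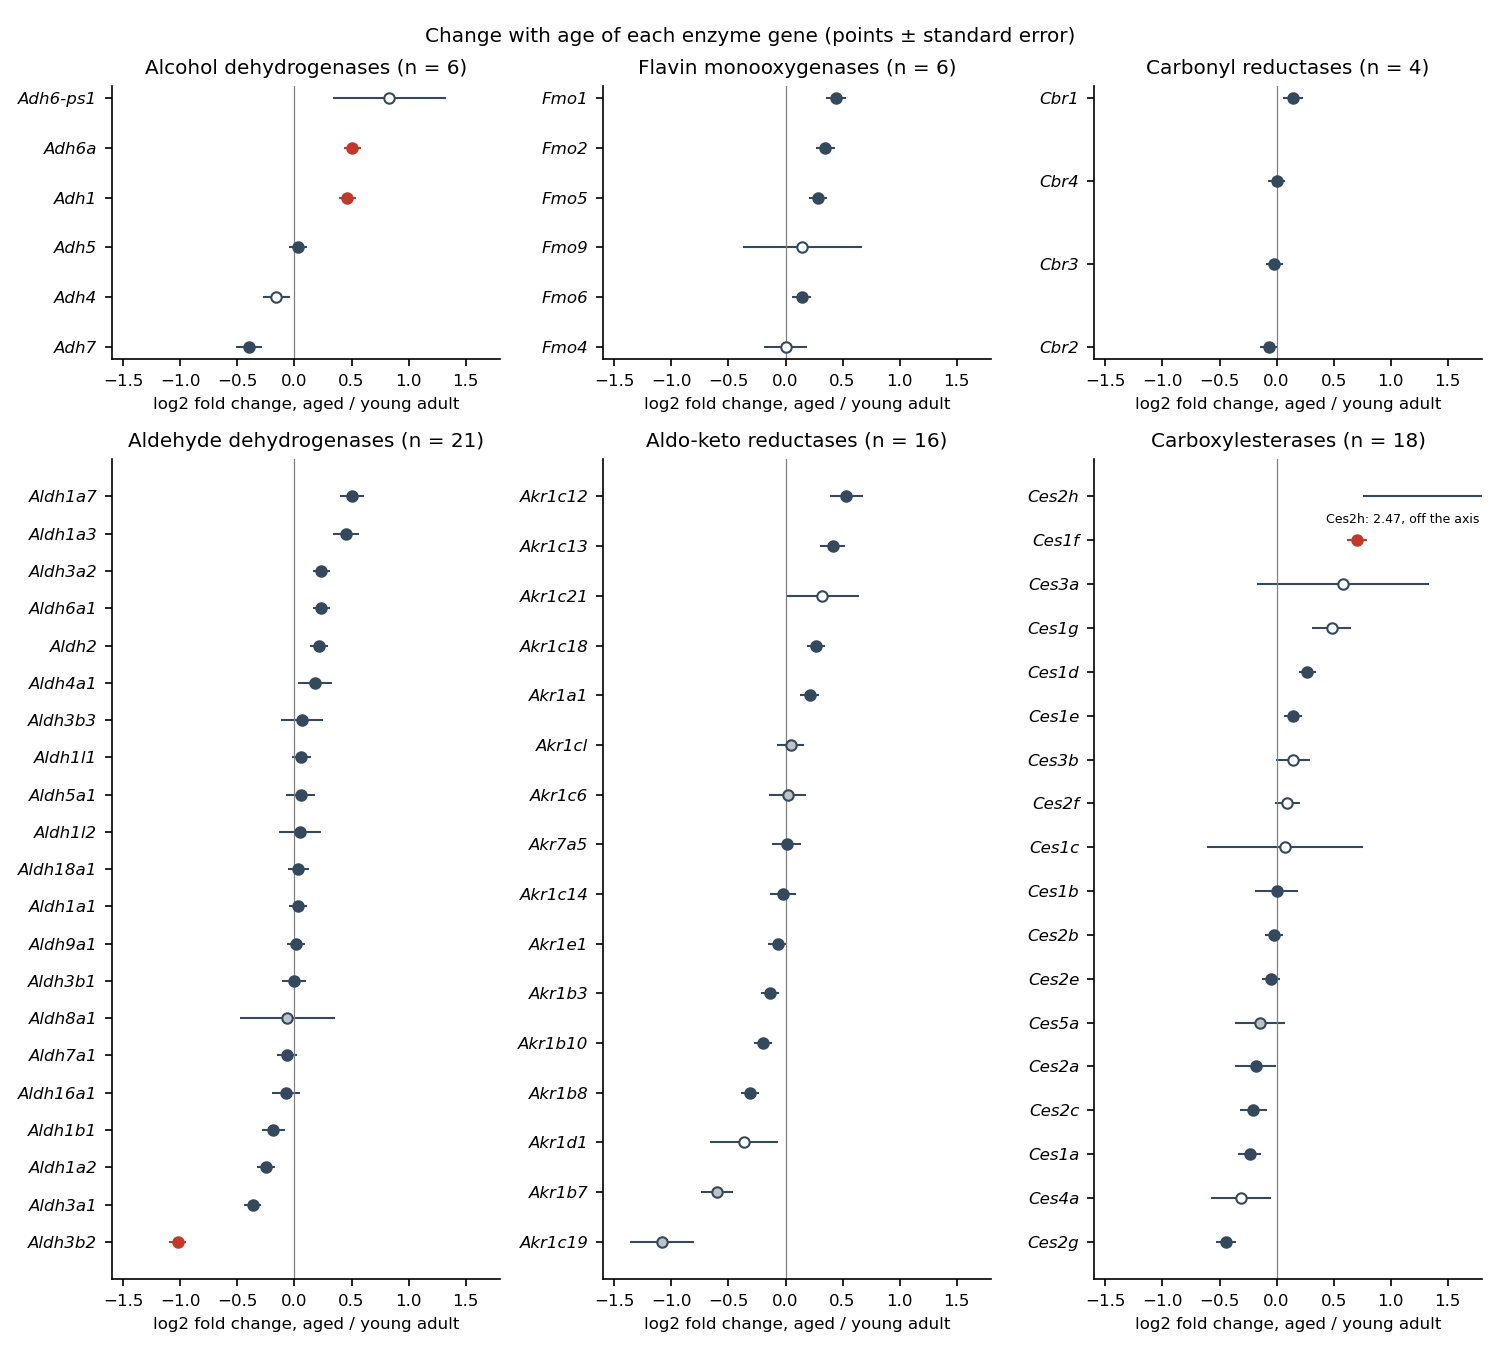
Log2 fold change (aged over young adult, x axis) of the enzyme genes by family (n in a panel title counts the genes drawn; 1 of the 72 is not drawn), with the standard error of limma's fit as bars. Red points are the 4 genes with P below 0.05 and FDR below 0.25. Filled points were well above background on all 4 arrays, grey points on some and open points on none. *Aldh3b2* lies at -1.02 and *Ces1f* at 0.70, while 13 genes, among them *Ces2h* at 2.47, rest on probes that were on no array well above background.

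At an unadjusted P below 0.05 alone, 15 members were higher (20.8%, against 6.05% of all genes) and 8 were lower (11.1%, against 7.08%). Of these 23 genes, 19 missed the FDR limit. The genes nearest to it on the outside were *Ces2g* (FDR = 0.260), *Fmo1* (0.262), *Aldh3a1* (0.264) and *Aldh1a7* (0.269), and the gene nearest to it on the inside was *Adh1* (0.221). Both aged arrays lay above both young adult arrays for 22 members and below them for 15, and 24.2 and 21.8% of all genes separated in these ways. Exact permutation of 2 arrays per age, two-sided, gives a single gene no P under 0.333, so every call rests on limma's moderated spread. The count moved with the processing: 14 members were called higher and 8 lower with a background offset of 50 (4.62 and 5.43% of all genes), and 17 and 11 of 56 members where 1 age or both had to have 2 arrays with the probe well above background (11.7 and 12.6% of genes). That filter can be passed through the age with the higher level alone, as *Akr1c19* and *Akr1cl*, both among the 11, did. An intensity trend in limma's moderation gave 20 and 9 (7.92 and 7.71% of all genes). No gene of the array was called with any 1 array left out.

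Among the aldehyde dehydrogenases, *Aldh3b2*, which oxidizes long-chain fatty aldehydes, was downregulated, and its level in young adult mice was 2.03 times that in aged mice. It read 2540.5 and 2547 in young adult mice and 1235 and 1267 in aged mice. The arrays of either age lay within a few percent of each other and the ages were far apart. The fold change was -1.02 (standard error 0.07, FDR = 0.178 by limma). The linear mean was 2544 ± 4.69 (SD, n = 2 pools) in young adult and 1251 ± 22.6 in aged mice. The fold change was -1.04 between the 2 arrays that shared a slide and -1.01 between the other 2.

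*Aldh3b2* lies on chromosome 19 beside *Aldh3b1* and *Aldh3b3*, and these neighbours were looked at for that reason and after their values had been seen. *Aldh3b1* was at 10055 and 10205 in young adult and at 10843 and 9427 in aged mice, with a fold change of 0.00 (FDR = 0.992). *Aldh3b3* had a gene mean fold change of 0.07 (FDR = 0.902), but its 2 probes disagreed. The probe well above background on all arrays read 584 and 636 in young adult and 381 and 409 in aged mice, a fold change of -0.63 (FDR = 0.206 over all probes). The other probe was on no array well above background and read 0.76 (FDR = 0.477), so the mean over the probes carries both. The detected *Aldh3b3* probe thus lay on the same side as *Aldh3b2* and met both limits where each probe was tested on its own. Differences between these neighbours were not tested.

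The other members of the Aldh3 group are *Aldh3a1*, which oxidizes aromatic and medium-chain aldehydes, and *Aldh3a2*, the fatty aldehyde dehydrogenase, which are neighbours on chromosome 11. *Aldh3a1* read 32748 and 32281 in young adult and 25544 and 24880 in aged mice, and *Aldh3a2* read 1033 and 1045 against 1230.4 and 1216. The arrays of the ages did not overlap for either gene, as for 46% of all genes, and the directions were opposite. The fold changes were -0.37 for *Aldh3a1* (standard error 0.08, FDR = 0.264) and 0.24 for *Aldh3a2* (FDR = 0.363, 3 probes from 0.17 to 0.31), neither called. Direct comparison of these neighbours was not tested.

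The 4 Aldh1a genes encode cytosolic enzymes, 3 of which (*Aldh1a1*, *Aldh1a2* and *Aldh1a3*) make retinoic acid from retinaldehyde. None was called. *Aldh1a3* read 1291 and 1176 in young adult and 1798 and 1583 in aged mice (fold change 0.45, FDR = 0.305), whereas *Aldh1a2* read 7283 and 7522 against 6329 and 6109 (-0.25, FDR = 0.359). The ages did not overlap for these 2 genes, with *Aldh1a3* on the higher and *Aldh1a2* on the lower side in aged mice. Of all genes, 46% separated in either direction. *Aldh1a7*, a close relative of *Aldh1a1*, read 6621 and 6095 against 9545 and 8512 (0.50, standard error 0.11, FDR = 0.269), again without overlap. *Aldh1a1* itself, the gene beside *Aldh1a7* on chromosome 19, read 50503 and 53431 in young adult and 52789 and 53355 in aged mice. Its arrays overlapped between the ages, and its fold change of 0.03 had a 95% interval from -0.21 to 0.27.

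Of the remaining 12 Aldh genes, *Aldh2*, the mitochondrial acetaldehyde dehydrogenase, read 34596 and 35618 in young adult and 41406 and 40214 in aged mice, a fold change of 0.22 (95% interval -0.01 to 0.45, FDR = 0.397). *Aldh6a1*, which acts in valine breakdown, had a fold change of 0.23 (FDR = 0.365). Both genes were higher on both aged arrays, as were 24.2% of all genes, and neither was called. The other 10 lay between -0.18 (*Aldh1b1*) and 0.18 (*Aldh4a1*). Among these, *Aldh8a1* was well above background on only 1 array of each age. Over all 21 aldehyde dehydrogenases, 13 were higher and 8 lower, with a median of 0.03.

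**Figure D2:**
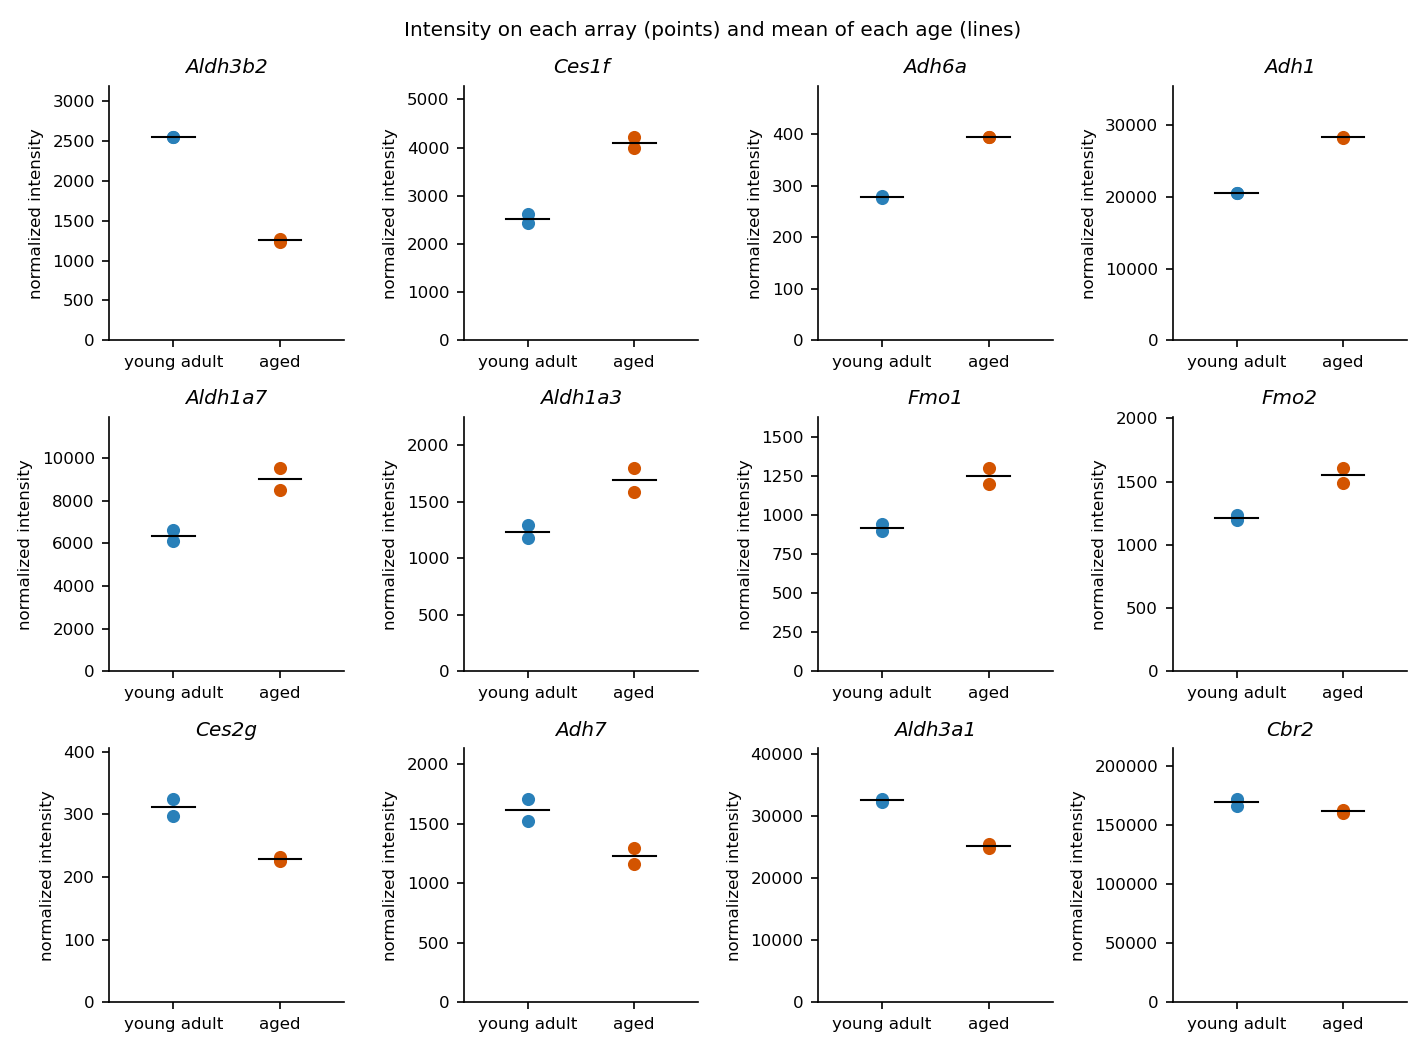
Normalized intensity (y axis, linear, from 0) of 12 enzyme genes on each array, as points, with the mean of the 2 arrays of an age as a line. The arrays of young adult and aged mice do not overlap in any of the 12 panels, which were chosen for display. Of all genes tested, 46% separate in this way in either direction. The distance between ages runs from a ratio of 2.03 for *Aldh3b2* down to 1.05 for *Cbr2*, where the brighter of the 2 probes averaged here overlaps between ages.

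Of the 4 calls, 2 were alcohol dehydrogenases, both higher in aged mice, while 1.65% of all genes tested were called higher. These 2 are neighbours, and cross-hybridization between them was not tested. *Adh1*, the class I enzyme, which oxidizes ethanol and retinol, read 20619 and 20535 in young adult and 28397 and 28294 in aged mice. *Adh6a*, of a class whose substrates are little known, read 276 and 280.1 in young adult and 394.7 and 394.9 in aged mice. For both genes the aged arrays were higher and the arrays of one age nearly coincided. The fold change was 0.46 for *Adh1* (standard error 0.07, FDR = 0.221 by limma) with its 2 probes at 0.45 and 0.47, and 0.51 for *Adh6a* (standard error 0.07, FDR = 0.210, 1 probe).

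*Adh7*, the class IV enzyme of surface epithelia, which also oxidizes retinol, lay on the other side. It read 1525 and 1710 in young adult and 1161 and 1297 in aged mice, a fold change of -0.40 (standard error 0.12, FDR = 0.337), which was not called. The ages did not overlap, and the difference was -0.39 on the shared slide and -0.40 between the other arrays. *Adh5*, which oxidizes glutathione-bound formaldehyde and is the class III enzyme of all cells, read 33171 and 34975 in young adult and 34414 and 35127 in aged mice, with overlapping arrays and a fold change of 0.03 (95% interval -0.21 to 0.27). *Adh4* and the pseudogene *Adh6-ps1* were on no array well above background. In chromosomal order the 6 genes are *Adh7*, *Adh1*, *Adh6a*, *Adh6-ps1*, *Adh4* and *Adh5*, so that the 2 called genes are next to each other, with *Adh7* beside *Adh1*. Their promoters, given above, differed in the motifs found, and no test linked motifs to levels.

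The carboxylesterases lie in 2 groups on chromosome 8. In the first group *Ces1f* rose most. It read 2616 and 2431 in young adult and 4224 and 3988 in aged mice, so both aged arrays lay well above both young adult arrays. The fold change was 0.70 (standard error 0.09, FDR = 0.201 by limma), and the linear means were 2523 ± 131 and 4106 ± 167 (SD, n = 2 pools), a ratio of 1.63. It was 0.69 on the shared slide and 0.71 between the other arrays.

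Its neighbours in the Ces1 group were not called. *Ces1d*, a lipase-like esterase that hydrolyses triacylglycerol, read 27253 and 27996 in young adult and 33734 and 32853 in aged mice (0.27, FDR = 0.332). *Ces1e*, which holds beta-glucuronidase in the endoplasmic reticulum, read 4646 and 4908 against 5339 and 5222 (0.15, FDR = 0.548). *Ces1a*, at the end of the group, read 32640 and 29465 against 27153 and 25545 (-0.24, FDR = 0.453). The arrays of the ages did not overlap for these genes, with *Ces1d* and *Ces1e* on the higher and *Ces1a* on the lower side in aged mice. Of all genes, 24.2% separated on the higher and 21.8% on the lower side. *Ces1b* had a fold change of 0.00, and *Ces1c* and *Ces1g* were on no array well above background. Over the 7 Ces1 genes, 6 were higher and 1 lower, with a median of 0.15.

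In the second group, of Ces2, Ces3 and Ces4 genes, none was called and 4 of 10 were higher. *Ces2g* read 297.6 and 324.8 in young adult and 231.6 and 225.3 in aged mice, without overlap, a fold change of -0.44 (standard error 0.09, FDR = 0.260). *Ces2c* followed at -0.20 (FDR = 0.573) and *Ces2a* at -0.18 (FDR = 0.714), while *Ces2b* and *Ces2e* lay at -0.02 and -0.05. *Ces2f*, *Ces2h*, *Ces3a*, *Ces3b* and *Ces4a* were on no array well above background, and the fold change of 2.47 of *Ces2h* had a standard error of 1.71. The median over the 7 Ces2 genes was -0.05. Members of the Ces1 and Ces2 groups are close in sequence, and cross-hybridization between them was not tested, since probe sequences were not used here.

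Among the flavin-containing monooxygenases, *Fmo1*, *Fmo2*, *Fmo5* and *Fmo6* were well above background on all arrays, and these 4 were higher in aged mice without overlap, as were 24.2% of all genes, and none was called. *Fmo1* read 898 and 942 in young adult and 1303 and 1202 in aged mice (fold change 0.44, FDR = 0.262). *Fmo2*, the form known from lung, read 1233 and 1197 against 1608 and 1492 (0.35, FDR = 0.297). Each of these genes has 2 probes, and all 4 probes lay between 0.31 and 0.51.

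*Fmo5*, which lies apart from the others on chromosome 3, read 2034 and 2058 in young adult and 2427 and 2560.3 in aged mice (0.28, FDR = 0.327). This is the mean of 2 probes, the brighter at 0.17 and the dimmer at 0.40. *Fmo6* read 8302 and 8506 against 9599 and 8940.3 (0.14, 95% interval -0.11 to 0.39, FDR = 0.573). Both were higher on both aged arrays, *Fmo6* by less than the fit could separate from 0. *Fmo4* and *Fmo9* were on no array well above background. The median over the 7 genes was 0.28, the highest of the 6 families. These 4 genes were also above 0 in each of 11 other ways of processing the same 4 arrays. Among these ways, *Fmo1* was called in 7, *Fmo2* in 5, *Fmo5* in 4 and *Fmo6* in 1. Over them 0 to 11.7% of all genes were called higher, against 1.65% with the main settings.

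The aldo-keto reductases, which reduce aldehydes and ketones with NADPH, are given by subgroup. The 4 Akr1b genes, neighbours on chromosome 6 that include aldose reductase (*Akr1b3*), were all lower in aged mice without overlap, as were 21.8% of all genes, and none was called. *Akr1b8* read 4059 and 4249.8 in young adult and 3304 and 3382 in aged mice (-0.31, standard error 0.08, FDR = 0.305). *Akr1b10* read 2777 and 2831 against 2398 and 2488 (-0.20, FDR = 0.425), and *Akr1b3* was at -0.13 (FDR = 0.572). *Akr1b7* was well above background on 1 young adult array and on neither aged array. Its measured fold change of -0.60 (FDR = 0.286) therefore has no firm size, and it ranged from -1.81 to -0.26 over the other ways of processing.

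In the cluster on chromosome 13, which holds the Akr1c genes and *Akr1e1*, 5 of 8 genes were higher. *Akr1c12* read 388 and 407 in young adult and 645 and 514 in aged mice (0.53, standard error 0.15, FDR = 0.324). *Akr1c13* was at 0.41 (FDR = 0.319) and *Akr1c18*, a reductase that inactivates progesterone, at 0.26 (FDR = 0.344). All 3 were without overlap and higher in aged mice, as were 24.2% of all genes. *Akr1c12* was at 0.73 on the shared slide and 0.34 between the other arrays. *Akr1c19*, which lies between *Akr1c13* and *Akr1c12*, read 69.7 and 44.1 in young adult and 28.3 and 24.2 in aged mice. It was not well above background on either aged array, so its fold change of -1.08 (FDR = 0.309) has no firm size. With the main settings its level was at least 1.86-fold lower, a bound that did not hold throughout, since the fold change ranged from -2.40 to -0.48 over the other ways of processing and was -0.78 without young adult array 1. The remaining genes of the cluster, *Akr1c14*, *Akr1c6*, *Akr1c21* and *Akr1e1*, lay between -0.07 and 0.32 with an FDR of 0.713 or more, *Akr1c21* with no array and *Akr1c6* with 1 array well above background. As for the esterases, cross-hybridization between these close relatives was not tested.

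*Akr1a1*, the aldehyde reductase found in most cells, read 150771 and 142985 in young adult and 174332 and 166221 in aged mice, higher without overlap, with a fold change of 0.21 (95% interval -0.04 to 0.46, FDR = 0.428). *Akr7a5* lay at 0.01. *Akr1cl* had a gene mean of 0.05 from 2 probes that disagreed, one at -0.59 that was well above background on 3 arrays and one at 0.68 on none. In addition, *Akr1d1*, the steroid 5-beta-reductase, was on no array well above background. Over the 16 aldo-keto reductases, 8 were higher and 8 lower, with a median of -0.01.

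**Figure D3:**
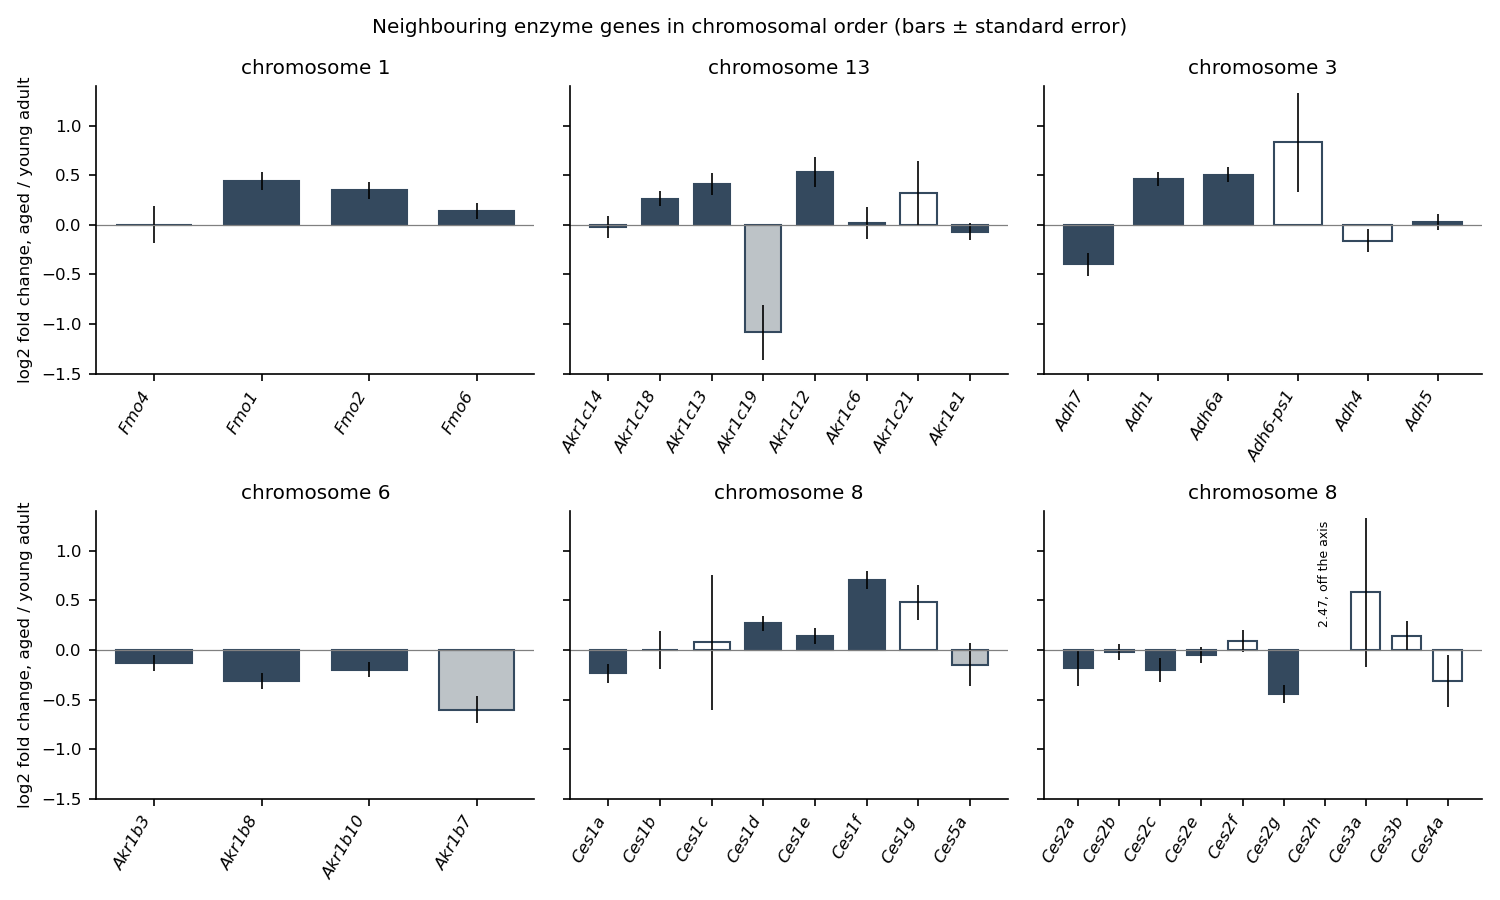
Log2 fold change (aged over young adult, y axis) of the 6 groups of at least 4 enzyme genes that follow each other on a chromosome with gaps of at most 1000000 bases, in chromosomal order; bars show the estimate and black lines the standard error. Dark bars were well above background on all 4 arrays, grey bars on some and open bars on none. The 4 Akr1b genes on chromosome 6 all lie below 0, while *Adh7* and *Adh1* (chromosome 3) and *Ces1a* and *Ces1f* (chromosome 8) lie on opposite sides.

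The carbonyl reductases showed the smallest range. *Cbr2*, the mitochondrial carbonyl reductase known from lung, read 172343 and 166630 in young adult and 160602 and 162761 in aged mice. In this mean over 2 probes the arrays did not overlap, but the distance was small. The fold change was -0.07 (standard error 0.08, 95% interval -0.30 to 0.16, FDR = 0.745). The brighter probe overlapped between the ages (-0.004), and the other did not (-0.13). *Cbr1*, the main cytosolic form, read 7321 and 7255 against 7690.4 and 8388 (0.14, 95% interval -0.12 to 0.40, FDR = 0.586). *Cbr3*, its close relative and neighbour on chromosome 16, read 7204 and 7448 against 7207 and 7230.3, with overlap, a fold change of -0.02 (95% interval -0.25 to 0.21), and its sign turned with another scaling. *Cbr4* was at 0.00 (95% interval -0.23 to 0.23).

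The values also allow the pair of arrays that shared a slide to be set beside the other pair. The 4 called genes had nearly the same value in both pairs, which a call, resting on a small spread between arrays, in part requires. Of the 72 members, 46 (63.9%) had the same sign in both pairs, against 61.4% of all genes. Of the 22 members with several probes, the probes of 10 differed in sign, in 3 of them (*Aldh1l2*, *Aldh9a1* and *Cbr4*) with all probes well above background on every array.

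**Figure D4:**
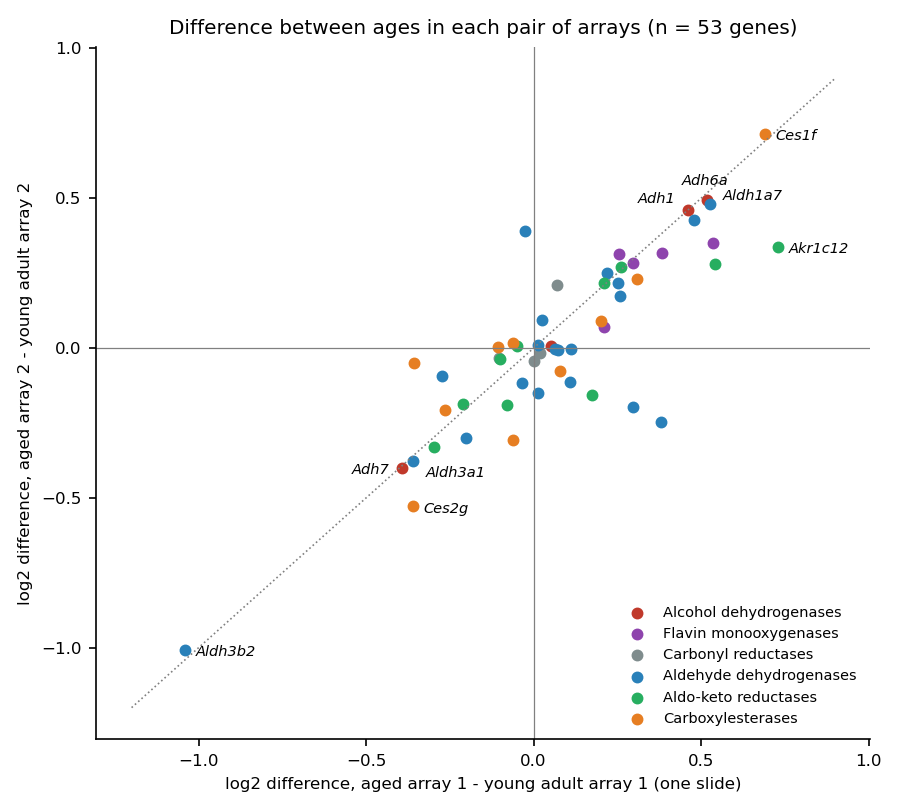
Log2 difference of aged minus young adult arrays for the 53 enzyme genes well above background on all 4 arrays, in the pair that shared a slide (x axis) and in the other 2 arrays (y axis), coloured by family; the dotted line marks equal values. *Aldh3b2* (-1.04 and -1.01) and *Ces1f* (0.69 and 0.71) lie on the line at its ends, and genes near 0 scatter in sign.

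Other enzymes of the same chemistry were looked at by lists, each chosen for function but with earlier results of these data known. Of 24 other oxidases and reductases of aldehydes and carbonyls, 14 were higher and 10 lower (median 0.04), and only *Xdh*, xanthine oxidoreductase, was called, at 0.46 (FDR = 0.222, mean level 1014 in young adult and 1392 in aged mice). *Adhfe1*, an iron-dependent alcohol dehydrogenase, was at 0.42 (FDR = 0.251), and *Aox2*, an aldehyde oxidase, was at 0.40 (FDR = 0.264). Of 15 other esterases and hydrolases, 10 were higher and 5 lower (median 0.10), and only *Ephx1*, the microsomal epoxide hydrolase, was called (0.44, FDR = 0.248, mean level 64492 and 87576). These medians stand beside 0.01 over all genes tested, 51.5% of which were higher. Of all genes, 1.65% were called higher and 2.33% lower.

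For the retinoid pathway, which several Adh and Aldh1a enzymes serve, 27 of 28 listed genes were measured, of which 9 were higher and 18 lower (median -0.08). Of these 27, only 20 were well above background on all 4 arrays and 4 were on none, and the sign of such dim genes is not firm. *Cyp26b1*, which breaks down retinoic acid, fell from 4726 to 2689 (-0.81, standard error 0.08, FDR = 0.185 by limma). *Rdh1*, a retinol dehydrogenase, rose from 96.5 to 159 (0.72, FDR = 0.242). *Rdh10*, which makes retinaldehyde from retinol, was at -0.41 (FDR = 0.261) and was not called.

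Markers of the cells of the mucosa moved with age as well. For the counts that follow, 1.65% of all genes tested were called higher and 2.33% lower, and 51.5% had a fold change above 0. The summed level of the 11 sustentacular markers was 1329047 and 1346120.4 in young adult and 1324044 and 1316102 in aged mice (median fold change 0.02, 1 called higher), and that of the 8 Bowman gland markers was 348400.4 and 342114 against 402425 and 408999 (median 0.12, 2 called higher and 1 lower). All 12 mature ORN markers were higher (median 0.20, 2 called), and the medians were -0.32 for 8 immature ORN markers (1 called lower) and -0.30 for 9 basal cell markers (3 called lower). Connective and vascular markers were lower. The summed fibroblast level was 225524 to 250124 in young adult and 118069 to 126122 in aged mice (8 of 8 lower, 4 called, median -0.50). Such a sum rests mostly on the brightest probes. Among these, *Col1a1* and *Col1a2* were at -1.98 and -1.52, whereas *Dcn* was at -0.19 and was not called. The medians were -0.49 for endothelial, -0.34 for macrophage, -0.51 for Schwann and ensheathing and -0.79 for osteoblast markers (4, 2, 5 and 5 called lower). Respiratory ciliated (-0.11, 7 of 8 measured, none called), respiratory secretory (-0.06, 2 called lower), squamous (-0.30, none called), vomeronasal (-0.14, none called), skeletal muscle (-0.28, none called) and adipocyte markers (0.09, 1 called higher) were also taken. Only 3 of 5 measured vomeronasal, 2 of 7 skeletal muscle and 4 of 8 adipocyte markers were well above background on all 4 arrays. The medians of these lists rest in part on dim probes. There were 8 hepatocyte markers, looked at because liver is rich in the same enzymes. Of these, 3 (*Serpina1a*, *Tat* and *G6pc*) were well above background on all 4 arrays. *Apoa1* and *Apob* were so on no array, and the others on some arrays. The summed hepatocyte level was 693 to 824 in young adult and 581.4 to 581.6 in aged mice (median -0.32, 1 called lower). The part of these cell types in the enzyme values was not tested.

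**Figure D5:**
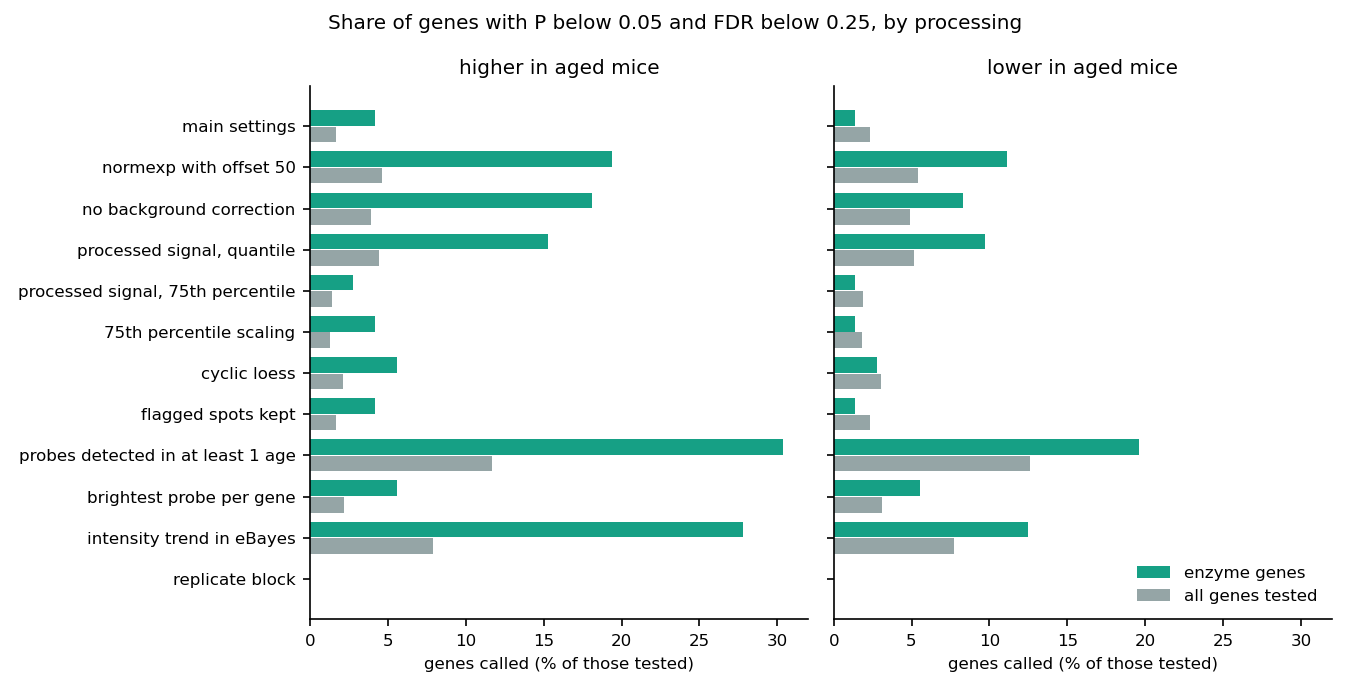
Percent of genes called at P below 0.05 and FDR below 0.25 (x axis), for the enzyme genes and for all genes tested, under the main settings and 11 other ways of processing (rows), separately for genes higher and lower in aged mice. The enzyme genes range from 0 to 30.4% higher and from 0 to 19.6% lower, with all genes from 0 to 11.7% and from 0 to 12.6%, and both are at 0 with the replicate number as a block.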

How the data were processed

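Per the labels, RNA of septal nasal mucosa (2 arrays per age, each a pool of 5 mice) was labelled with Cy3 and hybridized to one-color arrays. The authors deposited, per array, the median intensity of each of 62976 spots (59305 non-control) and of its local background, a processed intensity and quality flags, extracted with Feature Extraction 11.0.1.1 and not normalized between arrays. The deposited series table equalled the processed intensity in all 4 columns and added nothing. Gene coordinates are not given, because the array design and the gene table use different builds; promoter positions are those of the promoter table.

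From the median intensities, background was corrected by normexp (offset 0, all spots) in limma 3.58.1 under R 4.3.3, since the study's text names limma, R 3.2.1 and quantile normalization but no offset. Control spots and outlier-flagged spots (88 to 118 per array) were left out, log2 values were averaged over the spots of a probe, quantile normalized between arrays and averaged over the probes of each gene. Probe accessions were matched to RefSeq symbols (GRCm38.p6; 32994 probes, 58.3%), and unmatched probes kept their identifiers. All 45604 genes with a value on every array (12 had none on some array) were fitted with lmFit and eBayes, without covariates (2 residual and 1.38 prior degrees of freedom). The fit was tested on simulated data, in a simulation revised several times: signs and sizes were recovered, but many simulated 2-fold changes were not called at these limits, so a gene not called may still have changed. The number of arrays limits the precision. A bound ("at least") sets the young adult mean against, per aged array, the higher of the probe's own value and the lowest signal well above background.

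Named are the called members, the 3 brightest and the 2 most changed detected members of each family, and 13 enzymes chosen by function; a few others were added after their values were seen. Neighbours are members within 1000000 bases. The members and lists were chosen with earlier results of these data known. Alternatives covered background correction, scaling, flagged spots, dim probes, the choice of probe, moderation, the replicate number as a block, the shared slide, single arrays left out and the call limits. Values of 1 member are not reported here. Promoter sequences are RefSeq's.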

Additional observations from a re-analysis of the deposited data

How the results depend on the processing

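With the main settings 3 members were called higher and 1 lower (1.65 and 2.33% of all genes; the brackets below give the same shares). The numbers became 14 and 8 with a normexp offset of 50 (4.62 and 5.43%), and 13 and 6 with no background correction (3.92 and 4.91%). They were 11 and 7 with the processed signal quantile normalized (4.45 and 5.14%), and 20 and 9 with an intensity trend in eBayes (7.92 and 7.71%). With only probes that 2 arrays of the same age showed well above background they were 17 and 11 of 56 (11.7 and 12.6%). *Akr1c19* and *Akr1cl*, among the 11, passed through the young adult arrays alone. Cyclic loess gave 4 higher and 2 lower (2.09 and 3.02%), and the brightest probe per gene gave 4 and 4 (2.2 and 3.09%). Each probe tested on its own gave 3 higher and 2 lower, for which no share is given. With a mean level of at least 100 and a fold change of at least 1.5 there was 1 higher and 1 lower member (0.814 and 1.15%). At an FDR below 0.05 there were 0 and 0, where limma's smallest FDR over all genes was 0.0945. The processed signal scaled to the 75th percentile gave 2 and 1 (1.41 and 1.89%), and the other settings 3 and 1 (1.28 to 1.65% and 1.81 to 2.32%). With 1 array left out the counts were 0 to 0 in both directions for each of the 4 arrays, with a smallest FDR over all genes of 0.408 to 0.677, so leaving out any array ended every call. The fold changes of the 4 called genes then lay between 0.49 and 0.52 for *Adh6a*, 0.46 and 0.47 for *Adh1*, 0.65 and 0.76 for *Ces1f*, and -1.04 and -1.01 for *Aldh3b2*. *Adh1*, *Ces1f* and *Aldh3b2* were called in 10 of 11 alternatives and *Adh6a* in 9. Over these alternatives 0 to 11.7% of all genes were called higher and 0 to 12.6% lower. The causes of these differences were not tested.

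With the replicate number of the titles as a block, 0 members were called higher and 0 lower, and no gene of the array was called (smallest FDR 0.433). The correlation of the deviations of same-numbered arrays was -0.08, so the numbers were not taken to pair the pools.

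All 23 members with an unadjusted P below 0.05 kept their direction in each of the 11 alternatives that gave them a value (*Akr1b7* had one in 10). Of all 72 members 53 did so in those that gave a value, and 19 changed sign in at least 1, of which 11 were well above background on all arrays. The alternatives reprocess the same 4 arrays. A kept direction, which a low P in part requires, is therefore no separate support. Among the named genes, *Cbr3* reversed to 0.0228 with the processed signal quantile normalized, to 0.0484 with it scaled to the 75th percentile, to 0.0027 with 75th percentile scaling and to 0.00051 on the shared slide, and *Adh5* reversed to -0.0070 with cyclic loess. With 1 array left out, *Cbr3* ranged from -0.0452 to 0.0027 (positive without young adult array 2), and *Adh5* from -0.0082 to 0.0678 and *Aldh1a1* from -0.0111 to 0.0755 (both negative without young adult array 1). The median of all genes was 0.01 with quantile normalization, 0.07 for the processed signal and 0.02 for the normexp signal, both scaled to the 75th percentile. The slide as a random block was not run, because its correlation could not be estimated from 4 arrays. Signal over background limits the 19 members not well above background on every array.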
